A study of Homo sapiens with 6 samples.

Results

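This account covers 10 of the 60612 genes in the deposited table: CCN1, CCN2, ANKRD1, AMOTL1, AMOTL2, AXL, LATS2, FJX1, TEAD1 and WWTR1. They were chosen by name as CCN genes, further targets of YAP and TEAD, a TEAD factor and the gene of a YAP relative. The choice was made with earlier values of the same comparison known, in which CCN2 had passed the test, so all their differences below are descriptions and support nothing by themselves. All 10 names occur once in the table, and all 10 were among the 18863 genes expressed enough to be tested.

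The data are 6 poly(A) RNA libraries of PANC-1, a long-established human line from a pancreatic carcinoma, grown in serum-containing medium. In 3 of them the cells had been given 50 µM D(+)-raffinose pentahydrate, a plant trisaccharide, for 24 h, and for the other 3 the sample names give no compound, vehicle or time. The protocol text repeated for all 6 libraries names the compound, so the groups rest on sample titles. The labels do not say whether replicates are separate cultures, and p-values therefore measure the spread between libraries, which may be technical. Only this 1 line was studied. Values are listed in the order of replicates 1, 2 and 3 throughout.

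The Hippo pathway is a kinase cascade that holds back the coactivators YAP, encoded by YAP1, and TAZ, encoded by WWTR1. The kinases STK3 and STK4 activate LATS1 and LATS2, which phosphorylate YAP and TAZ and keep them out of the nucleus. When they are not phosphorylated, YAP and TAZ enter the nucleus and bind TEAD factors on DNA. CCN1, CCN2 and ANKRD1 are the genes most used as readouts of that activity. Several targets, LATS2 and AMOTL2 among them, encode inhibitors of YAP and form a negative feedback. In pancreatic carcinoma the pathway is studied for its link to growth of the tumour.

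The DNA before the start of CCN2, ANKRD1 and FJX1 is shown because CCN2 and ANKRD1 were the 2 members with the highest and FJX1 the member with the lowest fold change. Each run is the 250 bases before the RefSeq start on GRCh38.p14, written 5′ to 3′ on the strand of the gene, and the start matches that in the deposited table. Capitals mark GGAATG, the core of the TEAD binding motif, searched on both strands, where the other strand reads CATTCC. The windows are chr6:131951373-131951622 on the minus strand for CCN2, chr10:90921088-90921337 on the minus strand for ANKRD1 and chr11:35618210-35618459 on the plus strand for FJX1.
CCN2: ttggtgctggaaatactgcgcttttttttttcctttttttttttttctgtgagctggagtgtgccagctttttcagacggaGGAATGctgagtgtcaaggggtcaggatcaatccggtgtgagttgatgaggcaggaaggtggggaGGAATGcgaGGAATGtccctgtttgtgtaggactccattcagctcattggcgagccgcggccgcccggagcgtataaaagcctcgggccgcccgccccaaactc
ANKRD1: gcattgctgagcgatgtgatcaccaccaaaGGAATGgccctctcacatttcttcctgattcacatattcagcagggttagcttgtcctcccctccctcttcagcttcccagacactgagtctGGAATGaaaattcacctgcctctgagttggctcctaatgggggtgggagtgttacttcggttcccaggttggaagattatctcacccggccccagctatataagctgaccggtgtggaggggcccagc
FJX1: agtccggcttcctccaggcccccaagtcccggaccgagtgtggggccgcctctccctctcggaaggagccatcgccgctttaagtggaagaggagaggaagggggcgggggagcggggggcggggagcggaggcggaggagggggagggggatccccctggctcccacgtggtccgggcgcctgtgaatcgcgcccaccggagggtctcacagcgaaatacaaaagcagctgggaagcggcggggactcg

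CCN2 held 3 matches to the TEAD core, at -169 to -164, -104 to -99 and -95 to -90 from the start. ANKRD1 held 2, at -220 to -215 and -128 to -123. FJX1 held 0 in this window. Of all 35116 windows of this length in the RefSeq table, 11.9% held at least 1 match, 0.940% at least 2 and 0.0826% at least 3. A match describes the letters of a window and is not a measured binding site. The members were named as targets of YAP and TEAD, and these 3 windows were picked by fold change. Nothing is therefore read from their matches against these shares, nor about a link between matches and fold change.

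RefSeq windows were matched for 8 of the 10 members, with 11 windows in all, and CCN1 and TEAD1 were not matched. Of the 8 genes, 4 held a TEAD core match in the 250 bases: CCN2, ANKRD1, AMOTL2 at -69 to -64 of the second of its starts and AXL at -212 to -207 of the second of its starts. The other 4 were FJX1, LATS2, AMOTL1 and WWTR1. The window of LATS2 held a match after the start, at 9 to 14. For AMOTL1 and WWTR1 the RefSeq starts lie inside the deposited gene span rather than at its edge. The matches of AXL and AMOTL2 also belong to starts inside that span, by 7532 and 147 bases. The AXL window at the deposited start and the other AMOTL2 window, of a start outside the span, held 0 matches. The AP-1 motif was searched on both strands as TGANTCA, a loose form with any base in the middle. It was found in ANKRD1 alone, as TGATTCA at -195 to -189, and in 6.57% of all windows. This match overlapped no TEAD core match. The CArG box bound by SRF was found in 0 of the 8 genes and in 1.16% of all windows. Member counts here are per gene, over 11 windows, while the shares are per window, so they are not set against each other.

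**Figure D1:**
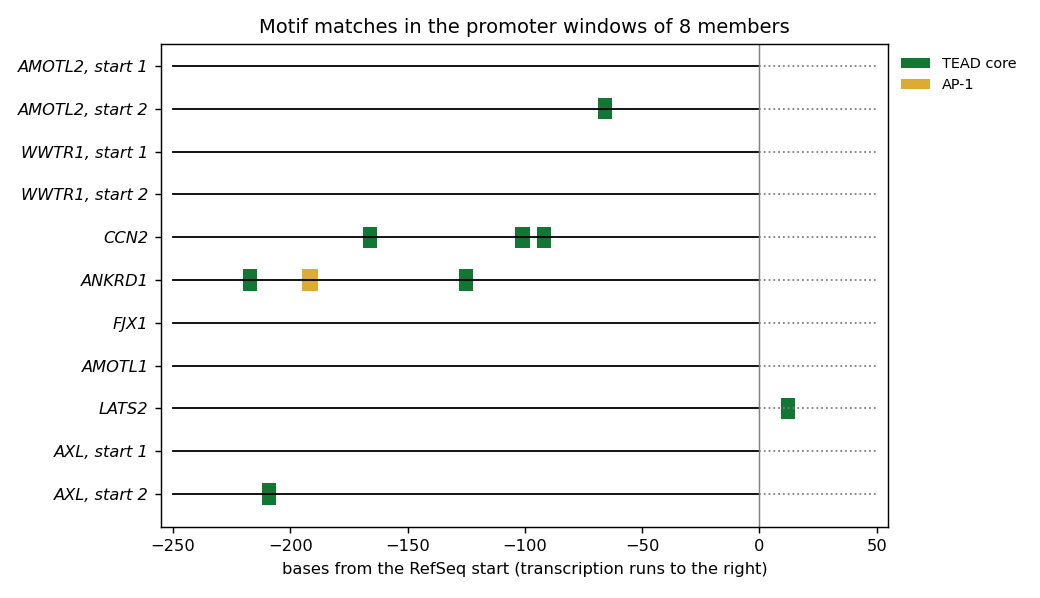
Positions of motif matches in 11 RefSeq promoter windows of 8 members, in bases from the start (x axis), with 1 line for each window. Solid lines are the 250 bases before the start, dotted lines the 50 bases after it. CCN2 holds 3 TEAD core matches and ANKRD1 holds 2 and a match to the loose AP-1 motif TGANTCA (letters TGATTCA).

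Total deposited counts ranged from 59723420 to 66063664 per library. A single read pair appears to add 4 to the deposited count, since 7943 entries of the table are at 4 against 2779 at 3 and 1566 at 5, so counts overstate fragments. Marker genes were checked against the cell line label. The keratin KRT18 had a mean of 455 FPKM and vimentin (VIM) 772 FPKM, while KRT19 (0.139 FPKM) and EPCAM (0.197 FPKM), also defining for ductal epithelium, were close to absent. All 5 acinar markers and the hormone genes INS, GCG and SST had a count of 0. Of 7 fibroblast markers 2 reached a mean of 1 FPKM, COL3A1 and COL1A1. The list, nearly all of it COL3A1, summed to 47.9 to 52.0 FPKM in untreated and 44.6 to 47.3 FPKM in raffinose libraries. COL3A1 was lower without overlap, with means of 47.0 FPKM (untreated) and 41.4 FPKM (raffinose). COL1A1 went the other way without overlap, with means of 3.10 FPKM (untreated) and 3.76 FPKM (raffinose). The epithelial list, nearly all of it KRT8 and KRT18, summed to 851 to 988 FPKM in untreated and 655 to 687 FPKM in raffinose libraries, without overlap. KRT7, KRT8 and KRT18 were each lower without overlap, while CDH1, KRT19 and EPCAM overlapped between groups. By counts scaled to library size, 10.6% of all tested genes were higher and 10.9% lower without overlap. The leukocyte list, nearly all of it CD68, summed to 12.4 to 15.9 FPKM in untreated and 7.00 to 9.48 FPKM in raffinose libraries, with CD3E at a count of 0. By edgeR 0 genes of these lists were called, and the part of these lists in the results below was not tested. Fewer cells of a kind and less RNA per cell cannot be told apart in such libraries.

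Per transcript length, CCN1 was the most abundant member, at 103 to 166 FPKM over the 6 libraries. AXL followed at 60.7 to 66.8 FPKM, ANKRD1 at 47.2 to 72.7 FPKM and CCN2 at 35.7 to 61.5 FPKM. Over all 6 libraries AXL overlapped with ANKRD1, and ANKRD1 with CCN2. Within each group AXL and ANKRD1 did not overlap. In untreated libraries AXL was higher, at 64.47 to 66.82 FPKM against 47.23 to 51.55 FPKM. In raffinose libraries ANKRD1 was higher, at 67.15 to 72.68 FPKM against 60.7 to 62.47 FPKM. CCN1 did not overlap with AXL, nor CCN2 with FJX1 (9.38 to 12.7 FPKM). FJX1, TEAD1, WWTR1 and AMOTL2 formed a run of overlapping ranges between 3.16 and 12.7 FPKM. LATS2 at 5.33 to 6.51 FPKM and AMOTL1 at 3.42 to 4.65 FPKM came last by mean, without overlap with each other. The range of TEAD1, 3.16 to 9.98 FPKM, covered both. CCN1 was above 98.7% of all tested genes by mean FPKM and AMOTL1 above 63.4%.

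**Figure D2:**
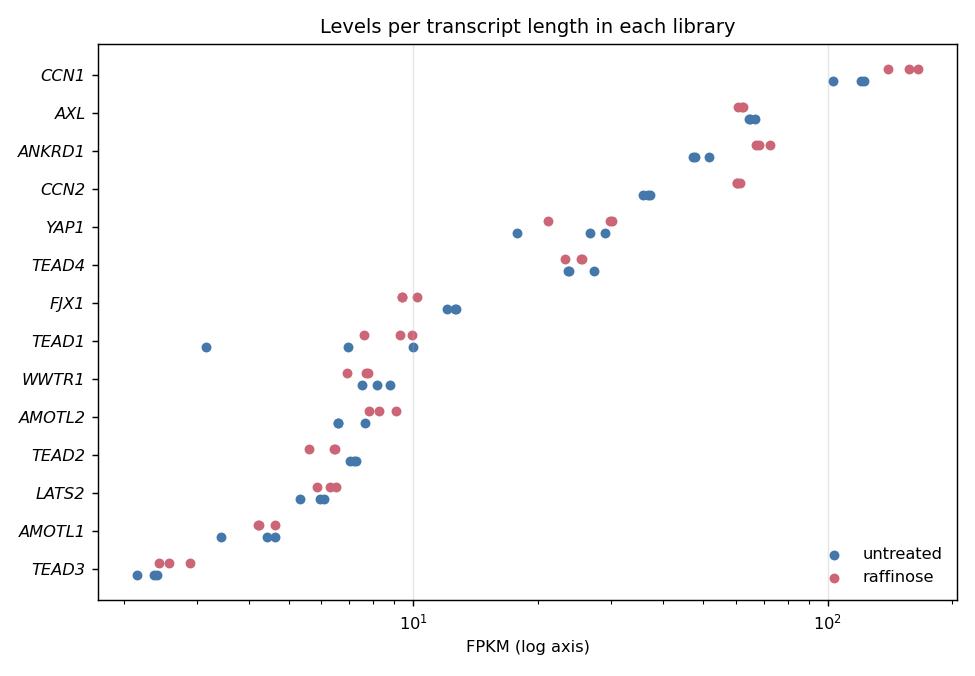
Deposited FPKM (x axis, log scale) of the 10 members and of YAP1, TEAD2, TEAD3 and TEAD4 in each library, with untreated libraries in blue and raffinose libraries in red. CCN1, AXL, ANKRD1 and CCN2 lie highest, and the raffinose points of CCN2 and ANKRD1 lie to the right of the untreated ones.

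Between the groups, the secreted matricellular genes CCN1 and CCN2 and the nuclear cofactor gene ANKRD1 were higher in every raffinose library than in any untreated one. AMOTL2 was higher by a small margin. FJX1, AXL and WWTR1 were lower in every raffinose library. AMOTL1, LATS2 and TEAD1 overlapped between groups. The groups thus did not overlap with raffinose higher in 4 of 10 members, against 10.6% of all tested genes, and with raffinose lower in 3 of 10, against 10.9%. The comparison is the one the members were chosen on, so nothing is read from these shares. By edgeR's quasi-likelihood test with Benjamini-Hochberg adjustment over 18863 genes, 1 member, CCN2, passed as higher against 0.0371% of all tested genes. None of the 10 passed as lower, against 0.0848% of all genes. At an unadjusted p under 0.05, 4 members were higher, against 6.21% of all tested genes, and 2 lower, against 7.08%. DESeq2 called 2 members higher, CCN2 and ANKRD1, against 1.10% of the genes it adjusted, and 1 lower, FJX1, against 1.83%.

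**Figure D3:**
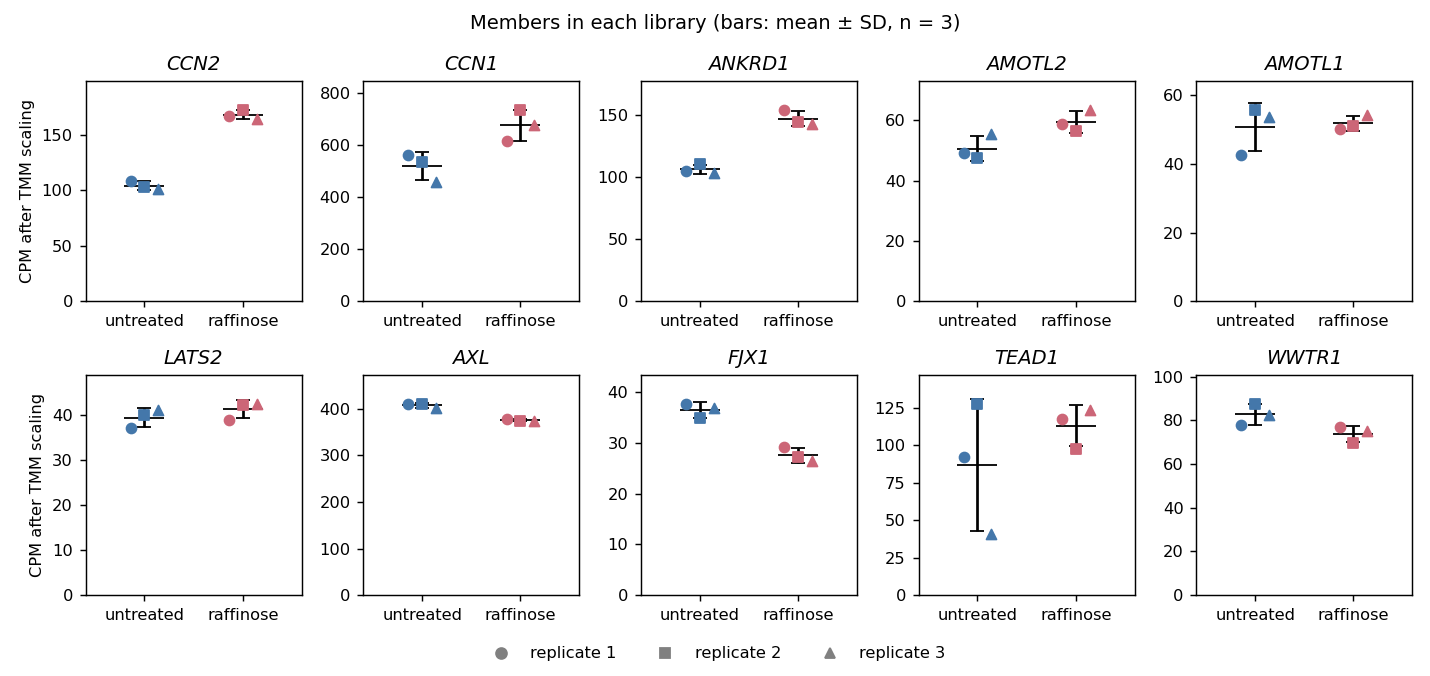
CPM after TMM scaling (y axes, each from 0) of the 10 members in the 3 untreated and 3 raffinose libraries. Symbols mark the replicate number, and bars give mean ± SD (n = 3). CCN2, CCN1, ANKRD1 and AMOTL2 lie higher and AXL, FJX1 and WWTR1 lower in raffinose libraries without overlap, and TEAD1 is low in untreated replicate 3.

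CCN2, also known as connective tissue growth factor, is a secreted matricellular protein that binds integrins and growth factors. In CPM, counts scaled to library size by TMM, CCN2 measured 167, 173 and 164 CPM in the raffinose libraries and 108, 103 and 101 CPM in the untreated ones. The raffinose libraries were all higher, with a gap of 56.1 CPM between the groups and a coefficient of variation of 2.50% and 3.66% within them. The mean rose from 104 ± 3.81 to 168 ± 4.20 CPM (SD, n = 3 per group), which is 61.4% higher. The log2 fold change was 0.69 (SE 0.06, edgeR adjusted p = 0.0171), rank 9 by p among all tested genes. CCN2 (ENSG00000118523) lies on chromosome 6, 131948176 to 131951372, minus strand, in the coordinates of the deposited table. The opposite-strand lncRNA AL133346, which overlaps it, was at 0.137 CPM in untreated and 0.0782 CPM in raffinose libraries. The edgeR call did not hold in 5 of the 6 fits with a library left out. The adjusted p was 0.0796, 0.0687 and 0.0564 without raffinose replicates 1, 2 and 3 and 0.0841 and 0.0871 without untreated replicates 2 and 3. Over those 6 fits the log2 fold change lay between 0.67 and 0.72.

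CCN1, also known as CYR61, is another secreted CCN protein and likewise signals through integrins. CCN1 measured 614, 735 and 676 CPM in the raffinose libraries and 563, 533 and 459 CPM in the untreated ones. The raffinose libraries were higher without overlap, but the spread within groups was wider than for CCN2, at 8.96% of the mean with and 10.3% without raffinose. Its mean was 518 ± 53.6 CPM in untreated and 675 ± 60.5 CPM in raffinose libraries (SD, n = 3 per group). The log2 fold change was 0.38 (SE 0.10) and did not pass the test (edgeR adjusted p = 0.208). It lay at 0.30 without untreated replicate 3, the lowest library, and at 0.45 without raffinose replicate 1. CCN1 (ENSG00000142871) lies on chromosome 1, 85580761 to 85583950, plus strand.

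ANKRD1 encodes a stretch-responsive ankyrin repeat protein, first known from heart muscle, that acts in the nucleus and at the sarcomere. ANKRD1 measured 154, 144 and 143 CPM in the raffinose libraries and 105, 111 and 104 CPM in the untreated ones. All raffinose libraries were above all untreated ones by at least 32.0 CPM. The mean was 106 ± 3.76 CPM in untreated and 147 ± 6.27 CPM in raffinose libraries (SD, n = 3 per group). Its log2 fold change of 0.47 (SE 0.06) missed the threshold by edgeR (adjusted p = 0.0692), and DESeq2 gave an adjusted p of 5.91e-05. With genes of a mean FPKM of at least 1 only, the edgeR adjusted p was 0.0431. With a library left out it passed in 0 of 6 fits, at an adjusted p of 0.138 to 0.237. Over 14 alternatives it passed in 3, with adjusted p from 5.91e-05 to 0.43, the highest with the replicate number as a block. ANKRD1 (ENSG00000148677) lies on chromosome 10, 90912096 to 90921087, minus strand.

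Among the members that encode inhibitors of YAP, AMOTL1 and AMOTL2 are angiomotin-like scaffolds that bind YAP at cell junctions, and LATS2 is the kinase that phosphorylates it. AMOTL2 measured 58.7, 56.4 and 63.5 CPM in the raffinose libraries and 49.0, 47.3 and 55.3 CPM in the untreated ones. The groups were separated by 1.07 CPM, and the log2 fold change of 0.24 (SE 0.09) did not pass (edgeR adjusted p = 0.319). AMOTL1 was at 50.1, 51.1 and 54.3 CPM with and at 42.7, 55.7 and 53.6 CPM without raffinose. Untreated replicate 1 was its lowest library and untreated replicate 2 its highest, so the groups overlapped. Without untreated replicate 1 the log2 fold change of AMOTL1 was -0.078 and without raffinose replicate 3 it was -0.003. LATS2 was at 39.0, 42.3 and 42.6 CPM with and at 37.1, 40.1 and 41.2 CPM without raffinose, and its groups overlapped too. The log2 fold change with all libraries was 0.03 (SE 0.11) for AMOTL1 and 0.07 (SE 0.08) for LATS2. AMOTL2 (ENSG00000114019) lies on chromosome 3, 134355874 to 134374594, minus strand. AMOTL1 (ENSG00000166025) lies on chromosome 11, 94706431 to 94876748, plus strand, and LATS2 (ENSG00000150457) on chromosome 13, 20973036 to 21061586, minus strand.

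AXL encodes a receptor tyrosine kinase of the TAM family, and FJX1 a secreted protein of the four-jointed family. AXL measured 379, 375 and 374 CPM in the raffinose libraries and 411, 411 and 402 CPM in the untreated ones. The spread within groups was the narrowest of all members, at 0.749% and 1.32% of the mean, and the raffinose libraries were lower by at least 22.6 CPM. AXL (ENSG00000167601) lies on chromosome 19, 41219223 to 41261766, plus strand. Its log2 fold change was -0.12 (SE 0.04) and did not pass (edgeR adjusted p = 0.324). FJX1 was at 29.2, 27.1 and 26.3 CPM with and at 37.7, 34.8 and 36.8 CPM without raffinose. Each raffinose library was below each untreated one by at least 5.64 CPM. The mean of FJX1 was 36.4 ± 1.49 CPM in untreated and 27.6 ± 1.46 CPM in raffinose libraries (SD, n = 3 per group). Its log2 fold change was -0.40 (SE 0.08, edgeR adjusted p = 0.145), and DESeq2 called it (adjusted p = 0.0116). FJX1 (ENSG00000179431), on chromosome 11, 35618460 to 35620865, plus strand, was the member with the most negative value.

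TEAD1 and WWTR1 encode the DNA-binding factor and the coactivator TAZ. TEAD1 measured 118, 97.9 and 124 CPM in the raffinose libraries and 92.2, 128 and 40.8 CPM in the untreated ones. Untreated replicate 3 had less TEAD1 than any other library and untreated replicate 2 more, so the untreated range covers the raffinose range. The coefficient of variation was 50.4% in untreated libraries. With all 6 libraries the log2 fold change of TEAD1 was 0.38 (SE 0.38), without untreated replicate 3 it was 0.04 (SE 0.17) and without untreated replicate 2 it was 0.77 (SE 0.35). WWTR1 was at 76.8, 69.5 and 75.0 CPM with and at 78.1, 87.7 and 82.4 CPM without raffinose. The groups differed by 1.23 CPM at their nearest, and the log2 fold change was -0.17 (SE 0.07, edgeR adjusted p = 0.390). WWTR1-AS1, an lncRNA on the opposite strand within WWTR1, had a mean of 0.699 CPM in untreated and 0.494 CPM in raffinose libraries. TEAD1 (ENSG00000187079) lies on chromosome 11, 12674421 to 12944737, plus strand, and WWTR1 (ENSG00000018408) on chromosome 3, 149517235 to 149736714, minus strand. Whether the deposited counting used strand is not given in the sources used here.

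**Figure D4:**
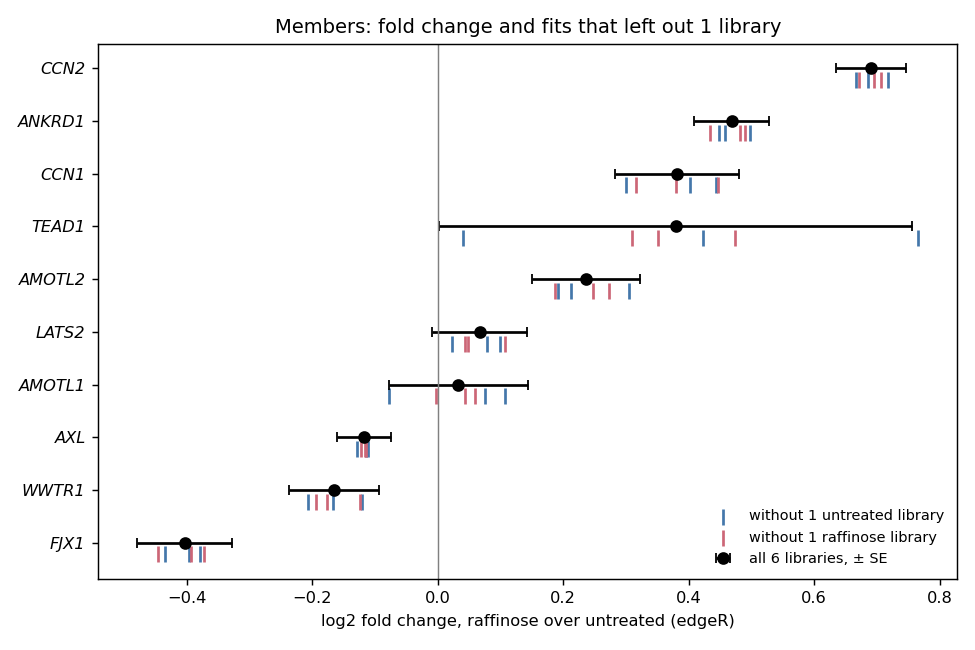
Log2 fold change of raffinose over untreated (x axis) for each member, with black points and bars for edgeR on all 6 libraries ± SE. Ticks give the value in each fit that left out 1 untreated (blue) or 1 raffinose (red) library. CCN2 stays between 0.67 and 0.72, while TEAD1 runs from 0.04 to 0.77 and AMOTL1 crosses 0.

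The median log2 fold change of the 10 members was 0.15, with 7 positive and 3 negative, against a median of 0.01 over all tested genes. Genes around them in the pathway were taken from 10 lists of 125 further genes. The lists were written with earlier results of these data known. Of these genes 116 were tested, 59 were positive and 57 negative, and the median was 0.02. By edgeR 0 passed as higher and 1 as lower (TGM2), with 15 higher and 16 lower at an unadjusted p under 0.05, which is 12.9% and 13.8% of those tested against 6.21% and 7.08% of all tested genes. As the lists were chosen on these data, nothing is read from these shares. DESeq2 called 3 higher, RASSF1 and ATF3 among them, and 6 lower (TGM2, MSLN, MYL9, FHL2, TGFB1I1 and FOSL2). Of all genes it adjusted, it called 1.10% higher and 1.83% lower.

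**Figure D5:**
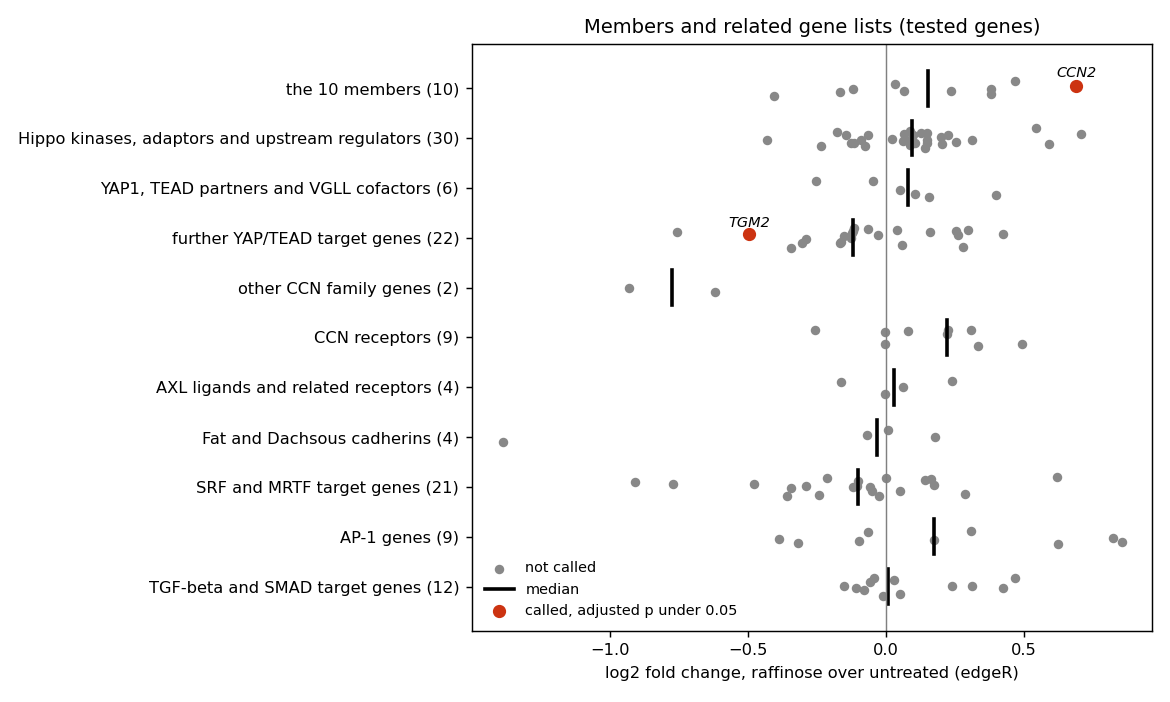
Log2 fold change of raffinose over untreated (x axis) of tested genes in the member group and in 10 related lists, with the number of tested genes in brackets. Black lines are medians and red points genes called by edgeR. CCN2 and TGM2 are the 2 called genes, and the list medians of the 9 lists with at least 4 tested genes lie between -0.12 and 0.22.

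YAP1 itself measured 223, 160 and 222 CPM in the raffinose libraries and 139, 219 and 204 CPM in the untreated ones. The groups overlapped, and the log2 fold change was 0.11 (SE 0.20). Among the TEAD factors TEAD4 had the highest mean level, 24.8 FPKM, against 7.82 FPKM for TEAD1, 6.67 FPKM for TEAD2 and 2.47 FPKM for TEAD3. TEAD2 was at 22.8, 23.3 and 19.4 CPM with and at 26.7, 26.0 and 25.3 CPM without raffinose, lower without overlap (log2 fold change -0.25, SE 0.09, edgeR adjusted p = 0.329). TEAD3 had a log2 fold change of 0.16 (SE 0.12) and TEAD4 one of -0.05 (SE 0.07). Of the VGLL cofactors, which also bind TEAD factors, VGLL4 was at 6.68 FPKM with a log2 fold change of 0.05 (SE 0.06). VGLL3 was at 0.436 CPM in untreated replicate 1 and between 4.98 and 6.87 CPM in the other 5 libraries. VGLL1 and VGLL2 had no counts.

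All 30 genes for Hippo kinases, adaptors and upstream regulators were tested, 21 with a positive and 9 with a negative log2 fold change (median 0.09). By edgeR 0 passed, with 5 higher and 1 lower at an unadjusted p under 0.05, against 6.21% and 7.08% of all tested genes. DESeq2 called RASSF1 higher, against 1.10% of the genes it adjusted. Nothing is read from these shares, as the list was chosen on these data. The scaffold RASSF1, which binds STK3 and STK4, was at 37.5, 40.4 and 33.0 CPM with and at 22.4, 29.3 and 21.9 CPM without raffinose (log2 fold change 0.59, SE 0.14, edgeR adjusted p = 0.190). WWC3, of the KIBRA family, had a log2 fold change of 0.31 (SE 0.08). AMOT, the angiomotin gene related to AMOTL1 and AMOTL2, was at 5.00 ± 0.640 CPM in untreated and 7.29 ± 0.884 CPM in raffinose libraries (SD, n = 3 per group), without overlap (0.54, SE 0.16, edgeR adjusted p = 0.242). Outside the rule for named genes, STK4 and NF2 are given because their values stood out. The kinase gene STK4 lay at 2 levels that did not follow the groups, with 79.8, 21.0 and 86.2 CPM with and 67.1, 24.7 and 22.9 CPM without raffinose. NF2, the merlin gene, measured 50.9, 51.2 and 103 CPM with and 139, 72.3 and 65.7 CPM without. The coefficient of variation was 65.4% in untreated and 57.7% in raffinose libraries for STK4, and 43.7% and 43.8% for NF2. TEAD1 and VGLL3 differed from them in that their spread lay mostly in the untreated group. For VGLL3 it came through 1 low library, while the untreated values of TEAD1 were spread out, at 92.2, 128 and 40.8 CPM. The cause of such spread was not tested.

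Of 24 further YAP/TEAD target genes 22 were tested, 8 with a positive and 14 with a negative log2 fold change (median -0.12). At an unadjusted edgeR p under 0.05, 3 were higher and 3 lower, against 6.21% and 7.08% of all tested genes. DESeq2 called 1 higher and 2 lower, against 1.10% and 1.83% of the genes it adjusted. Nothing is read from these shares, as the list was chosen on these data. GADD45A was higher in every raffinose library (0.26, SE 0.07, edgeR adjusted p = 0.201). TGM2, the transglutaminase that crosslinks matrix proteins, measured 375, 394 and 376 CPM in the raffinose libraries and 531, 534 and 548 CPM in the untreated ones. It was lower in all raffinose libraries and passed (log2 fold change -0.49, SE 0.05, edgeR adjusted p = 0.0263). With a library left out, it passed in 0 of 6 fits. MSLN, the mesothelin gene, had means of 4.89 ± 0.594 CPM (untreated) and 2.90 ± 0.158 CPM (raffinose) (SD, n = 3 per group; log2 fold change -0.75, SE 0.15, edgeR adjusted p = 0.146).

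The other 4 CCN genes were low. CCN5 had a mean of 0.866 FPKM and CCN3 one of 0.121 FPKM, against 48.7 FPKM for CCN2 and 135 FPKM for CCN1. CCN5, which lacks the C-terminal module of the other CCN proteins, was at 3.42, 4.79 and 4.15 CPM with and at 7.55, 6.16 and 5.27 CPM without raffinose. It was lower in every raffinose library (log2 fold change -0.62, SE 0.20, edgeR adjusted p = 0.274). CCN3, with an untreated mean of 0.518 ± 0.253 CPM (SD, n = 3), had a difference of -0.93 on the log2 scale (SE 0.49). CCN4 and CCN6 had reads in raffinose replicate 2 alone and were not tested.

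Among 9 genes for receptors of CCN proteins, 6 were positive and 3 negative, with a median log2 fold change of 0.22. By edgeR and by DESeq2 0 passed. At an unadjusted edgeR p under 0.05, 1 was higher and 1 lower, against 6.21% and 7.08% of all tested genes. ITGB1, the beta subunit of many integrins, had means of 962 ± 163 CPM (untreated) and 1213 ± 71.7 CPM (raffinose) (SD, n = 3 per group; 0.33, SE 0.12, edgeR adjusted p = 0.322), and the groups were 1.95 CPM apart at their nearest. SDC4, a heparan sulphate proteoglycan, had means of 110.0 ± 0.446 CPM (untreated) and 92.0 ± 4.12 CPM (raffinose) (SD, n = 3 per group; -0.26, SE 0.06, edgeR adjusted p = 0.173). LRP1, an endocytic receptor, had a log2 fold change of 0.31 (SE 0.14).

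For AXL, the ligand genes GAS6 and PROS1 and the related receptors TYRO3 and MERTK were all expressed, and 0 of the 4 passed by edgeR or DESeq2, nor at an unadjusted p under 0.05. GAS6 had a log2 fold change of 0.06 (SE 0.08), PROS1 one of -0.16 (SE 0.19), TYRO3 one of -0.004 (SE 0.07) and MERTK one of 0.24 (SE 0.11). In flies the four-jointed protein modifies Fat and Dachsous cadherins. Of 6 such cadherin genes 4 were tested here, and 0 passed by edgeR or DESeq2, nor at an unadjusted p under 0.05. FAT1 was at 9.33 FPKM with a log2 fold change of -0.07 (SE 0.16) and DCHS1 at 0.263 FPKM with one of 0.18 (SE 0.28). FAT2, with one of -1.39 (SE 1.05), was at 0.00992 FPKM.

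CCN1, CCN2 and ANKRD1 are also known to respond to SRF with MRTF coactivators, to AP-1 and to TGF-beta. Of 21 tested SRF and MRTF genes, 6 were positive and 15 negative (median log2 fold change -0.10), and 0 were higher and 7 lower without overlap, against 10.6% and 10.9% of all tested genes. By edgeR 0 passed, with 0 higher and 7 lower at an unadjusted p under 0.05, against 6.21% and 7.08% of all tested genes. DESeq2 called 3 lower (MYL9, TGFB1I1 and FHL2), against 1.83% of the genes it adjusted. The list was written with earlier results of these data known, so nothing is read from these shares. The myosin light chain MYL9 was at 82.4, 86.0 and 85.4 CPM with and at 127, 112 and 114 CPM without raffinose (-0.48, SE 0.07, edgeR adjusted p = 0.0925). TGFB1I1, a focal adhesion adaptor, had a log2 fold change of -0.77 (SE 0.13) and the LIM protein gene FHL2 one of -0.36 (SE 0.07). These 3, the genes of the list with the smallest p, were lower in every raffinose library. SRF itself (-0.05, SE 0.08) and VCL (-0.0003, SE 0.05) overlapped between groups. Whether SRF or MRTF had a part in the values of CCN1, CCN2 and ANKRD1 was not tested.

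Of 9 AP-1 genes 5 were positive and 4 negative (median 0.18). By edgeR 0 passed, with 4 higher and 2 lower at an unadjusted p under 0.05, against 6.21% and 7.08% of all tested genes. DESeq2 called ATF3 higher and FOSL2 lower, against 1.10% and 1.83% of the genes it adjusted. As this list was also chosen on these data, nothing is read from these shares. ATF3 was at 21.5, 34.6 and 25.7 CPM with and at 15.4, 15.6 and 14.3 CPM without raffinose (0.85, SE 0.18, edgeR adjusted p = 0.159). FOS, at a low mean of 0.512 FPKM, had a log2 fold change of 0.82 (SE 0.20, edgeR adjusted p = 0.193). FOSL2 had one of -0.32 (SE 0.06, edgeR adjusted p = 0.150). Of 12 TGF-beta and SMAD target genes 6 were positive and 6 negative (median 0.01). By edgeR 0 passed, with 3 higher and 0 lower at an unadjusted p under 0.05, against the same 6.21% and 7.08%. DESeq2 called 1 higher, against 1.10% of the genes it adjusted, and nothing is read from these shares either. The collagen gene COL1A1 (log2 fold change 0.24, SE 0.07, edgeR adjusted p = 0.242) and the inhibitory SMAD gene SMAD7 (0.31, SE 0.10, edgeR adjusted p = 0.270) were higher in every raffinose library.

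Likeness to CCN2 was measured over the 6 libraries as the root mean square difference between log2 CPM values, each gene centred on its own mean. Among 11700 other tested genes with a mean of at least 1 FPKM, the 5 nearest to CCN2 were SIDT2 (0.05), BMF (0.07), ZSWIM5 (0.08), ZNF160 (0.08) and CDCA7L (0.09). ANKRD1 came at rank 20 with 0.13 and CCN1 at rank 115 with 0.18. The 5 nearest to CCN1 were CDC37L1 (0.03), TSC22D3 (0.03), ACTR6 (0.03), TRAM1L1 (0.04) and POGLUT2 (0.04), with ANKRD1 at rank 315 and CCN2 at rank 1085. None of these 10 other genes passed by edgeR. The log2 fold change of SIDT2, a lysosomal membrane protein gene, was 0.61 (SE 0.07), and that of BMF, a pro-apoptotic BCL2 family gene, was 0.75 (SE 0.09).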

How the data were processed

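Poly(A) RNA libraries of PANC-1 cells, 3 raffinose and 3 untreated, were read from 1 deposited table. Per the file headers, the authors deposited an FPKM value and an estimated count per gene and library. Tools listed in the submitters' processing notes, with no role, include StringTie 1.3.4d, HISAT2 2.0.4 and cutadapt 1.9. Their genome build is not given in the sources examined. The starts of CCN2, ANKRD1 and FJX1 equal RefSeq starts on GRCh38.p14.

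The deposited counts are whole numbers and entered, unchanged, edgeR 4.0.16 under R 4.3.3 (filterByExpr with a minimum count of 10, TMM, glmQLFit, glmQLFTest), over the whole table, with calls where the Benjamini-Hochberg adjusted p was under 0.05. CPM are scaled by TMM, and SE is the size of the log2 fold change over the root of F. FPKM were used for levels between genes. The fits were tested on data simulated from these libraries. Libraries of a group differed by more than sampling noise, with a chi-square per gene of 14.0 to 22.0 on counts divided by 4.

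Alternatives were DESeq2 1.42.0, its size factors in edgeR, no filter, a mean FPKM of at least 1, counts divided by 4, limma 3.58.1 with trend on log2(FPKM + 1) and log2(FPKM + 0.1) for genes of at least 0.1 mean FPKM, the replicate number as a block, each library left out, and 300 in place of 250 bases for promoters.

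The members and lists were chosen with earlier results of these data known. The rule for named genes takes all members, all genes of the short YAP1/TEAD/VGLL, CCN and AXL lists, per other list the called genes and the 3 with the smallest p, and the 5 genes most like CCN2 and CCN1. Other genes were named after their values were seen. A gene that the rule names is not reported here.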

Additional observations from a re-analysis of the deposited data

How the results depend on the processing

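edgeR called 7 genes higher and 16 lower, with 1 and 0 members and 0 and 1 list genes among them. DESeq2 called 162 and 269 genes, 2 and 1 members, and 3 and 6 list genes. Limited to mean FPKM of at least 1, the counts were 15 and 27 genes, 2 members higher (CCN2 and ANKRD1) and 1 list gene higher. Counts divided by 4 gave 11 genes higher and 1 list gene higher, limma on log2(FPKM + 1) gave 1 list gene higher, and limma on log2(FPKM + 0.1) gave 14 genes, 2 members and 1 list gene higher. With each library left out, genes higher ranged from 0 to 15, genes lower from 4 to 13, members higher from 0 to 1 and list genes lower from 0 to 0. Fewer libraries remain in these fits. Genes higher numbered 15 without untreated replicate 1, 12 without untreated replicate 2 and 3 without raffinose replicate 2. Genes lower numbered 8 without each of these 3 and 4 without untreated replicate 3. The 0 came without untreated replicate 3, with 1969 at an unadjusted p under 0.05. CCN2 was called in 1 of these 6 fits. The cause of the other differences between settings was not tested.

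The replicate number as a block (replicate block) gave 0 genes higher and 0 lower, 0 members and 0 list genes, with 1932 at an unadjusted p under 0.05. The block uses up degrees of freedom, so fewer remain to measure the spread between libraries. In that fit CCN2 had a log2 fold change of 0.69 (SE 0.06, edgeR adjusted p = 0.302). Correlations of deviations between libraries that share a number were -0.00892, -0.0326 and 0.00629, so the numbers were not taken to pair libraries.

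Over 14 alternatives the log2 fold changes of 9 members kept their direction. AMOTL1 turned within the leave-one-out range of -0.078 to 0.108. Depth sets little limit for the members, whose counts ran from 1695 to 46538.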
